A study of Mus musculus with 16 samples.

Results

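The 10 genes described here encode the proteins that coat lipid droplets or help to build them: the perilipins Plin1, Plin2, Plin3, Plin4 and Plin5, the CIDE proteins Cidea and Cidec, seipin (Bscl2), and the FIT proteins Fitm1 and Fitm2. They were chosen by symbol. Where a gene had several probe sets, the one brightest on average was used. All 10 were among the 22180 genes measured. The samples were gonadal white adipose tissue, the fat pad beside the epididymis, from male C57BL/6 mice aged 3 to 4 months and sampled in the morning. The fed group (8 arrays) ate freely, and the fasted group (8 arrays) had been without food for 16 hours. Neither group carried a transgene or received an agent, per the labels. Whether each array was a separate mouse is not stated, so p-values measure only the spread between these samples. Levels are log2 values from RMA, a method that corrects background and sets all arrays to a shared distribution, so every change is relative to the other transcripts. The tissue is a mixture of cells, and in such samples fewer cells of a type cannot be told apart from less RNA per cell.

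A lipid droplet is a core of triglyceride and sterol ester under a single layer of phospholipid, and white adipocytes hold most of their volume in one large droplet. Droplets form in the membrane of the endoplasmic reticulum, where FIT proteins and seipin act at the sites at which triglyceride gathers and the droplet buds. Perilipins bind the droplet surface, and some of them set the access of lipases. Perilipin 1 of fat cells holds the lipase activator Abhd5 until protein kinase A phosphorylates it, and CIDE proteins let droplets exchange lipid so that the larger one grows. Fasting is known to turn fat cells from storing triglyceride to breaking it down.

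The sequences around 4 transcription start sites are shown because these perilipin genes included the largest rises and the largest fall of the set, and because Plin4 and Plin5 are neighbours on chromosome 17. Each window runs from 250 bases before to 50 bases after a RefSeq start in GRCm38.p6, 5′ to 3′ on the strand of the gene. Capitals mark AGGTCA or its reverse complement (the half-site of nuclear receptors such as PPARs), CACGTG (the E-box) and TATAA (the letters of a TATA box).
Plin2, chr4:86670010-86670309, minus strand: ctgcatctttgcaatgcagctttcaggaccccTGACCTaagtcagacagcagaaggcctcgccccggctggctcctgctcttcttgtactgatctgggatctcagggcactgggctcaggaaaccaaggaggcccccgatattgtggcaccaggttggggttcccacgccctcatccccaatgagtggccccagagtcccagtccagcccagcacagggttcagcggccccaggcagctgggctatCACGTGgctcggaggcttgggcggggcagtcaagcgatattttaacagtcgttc
Plin5, chr17:56117499-56117798, minus strand: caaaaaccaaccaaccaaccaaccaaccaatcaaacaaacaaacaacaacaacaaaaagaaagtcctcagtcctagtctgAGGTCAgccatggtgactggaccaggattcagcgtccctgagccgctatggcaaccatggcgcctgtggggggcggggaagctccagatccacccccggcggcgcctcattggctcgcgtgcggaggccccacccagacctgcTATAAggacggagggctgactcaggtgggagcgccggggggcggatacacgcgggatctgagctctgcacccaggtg
Plin4, chr17:56109733-56110032, minus strand: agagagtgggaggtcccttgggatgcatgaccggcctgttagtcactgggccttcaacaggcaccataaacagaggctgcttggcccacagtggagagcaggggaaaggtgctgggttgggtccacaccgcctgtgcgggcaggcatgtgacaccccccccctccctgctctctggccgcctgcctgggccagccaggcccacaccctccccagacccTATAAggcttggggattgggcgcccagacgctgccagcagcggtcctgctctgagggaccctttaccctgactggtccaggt
Plin1, chr7:79732727-79733026, minus strand: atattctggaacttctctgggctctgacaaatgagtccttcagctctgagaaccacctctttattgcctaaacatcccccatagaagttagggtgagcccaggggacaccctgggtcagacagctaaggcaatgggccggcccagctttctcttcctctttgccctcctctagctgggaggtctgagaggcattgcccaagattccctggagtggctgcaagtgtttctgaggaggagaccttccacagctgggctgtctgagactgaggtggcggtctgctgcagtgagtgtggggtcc
RefSeq windows were given for 9 of the 10 genes, 13 windows in all, and 2 of those for Plin5 overlap by their ends. AGGTCA was found on either strand in 4 of the 13 windows, belonging to Plin2, Plin5 and Bscl2, against 16.3% of all 32851 windows. In Plin5 it lay at -170 to -165 of the window shown, and in Plin2 at -218 to -213 on the opposite strand. CACGTG lay across the start of Plin2, at -4 to 2, and in no other window of the set, against 7.15% of all windows. The direct repeat of PPARs (AGGTCA and AGGTCA with 1 base between, so that it contains the half-site), the forkhead motif GTAAACA and the glucocorticoid motif (AGAACA and TGTTCT with 3 bases between) were in none of the 13 windows and in 0.0396%, 3.65% and 0.00913% of all windows. TATAA, a motif added after the sequences had been seen, lay at -32 to -28 in Plin4 and at -27 to -23 in Plin5, also in 1 window of Bscl2, and in 24.9% of all windows. These matches describe letters in short windows and show no binding.

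Fasting changed most of the droplet genes, and not in 1 direction. Plin5, Plin2, Fitm2, Plin4 and Cidec were higher in fasted fat, and Plin1, Plin3 and Bscl2 were lower. In limma's test with Benjamini-Hochberg adjustment over all genes (threshold 0.05), 8 of 10 members were called, 5 higher and 3 lower, where 19.2% of all genes were called, 8.49% higher and 10.7% lower. A filter on dim genes dropped those that reached a linear value of 20 on fewer than 8 arrays, Cidea and Fitm1 among them. Under this filter 8 of 8 members were called, against 4553 of 10832 genes, which is the closer share for these bright members. The 8 fed and the 8 fasted arrays did not overlap for 6 members, against 6.48% of all genes. The median log2 fold change of the 10 was 0.21, and that of all genes was -0.0042. The median size of the change, without its sign, was 0.50 for the members and 0.12 for all genes. Overlap and size were not compared with the bright genes alone. After subtraction of array medians, 54.7% of all calls were higher in fasted arrays in place of 44.3%.

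**Figure D1:**
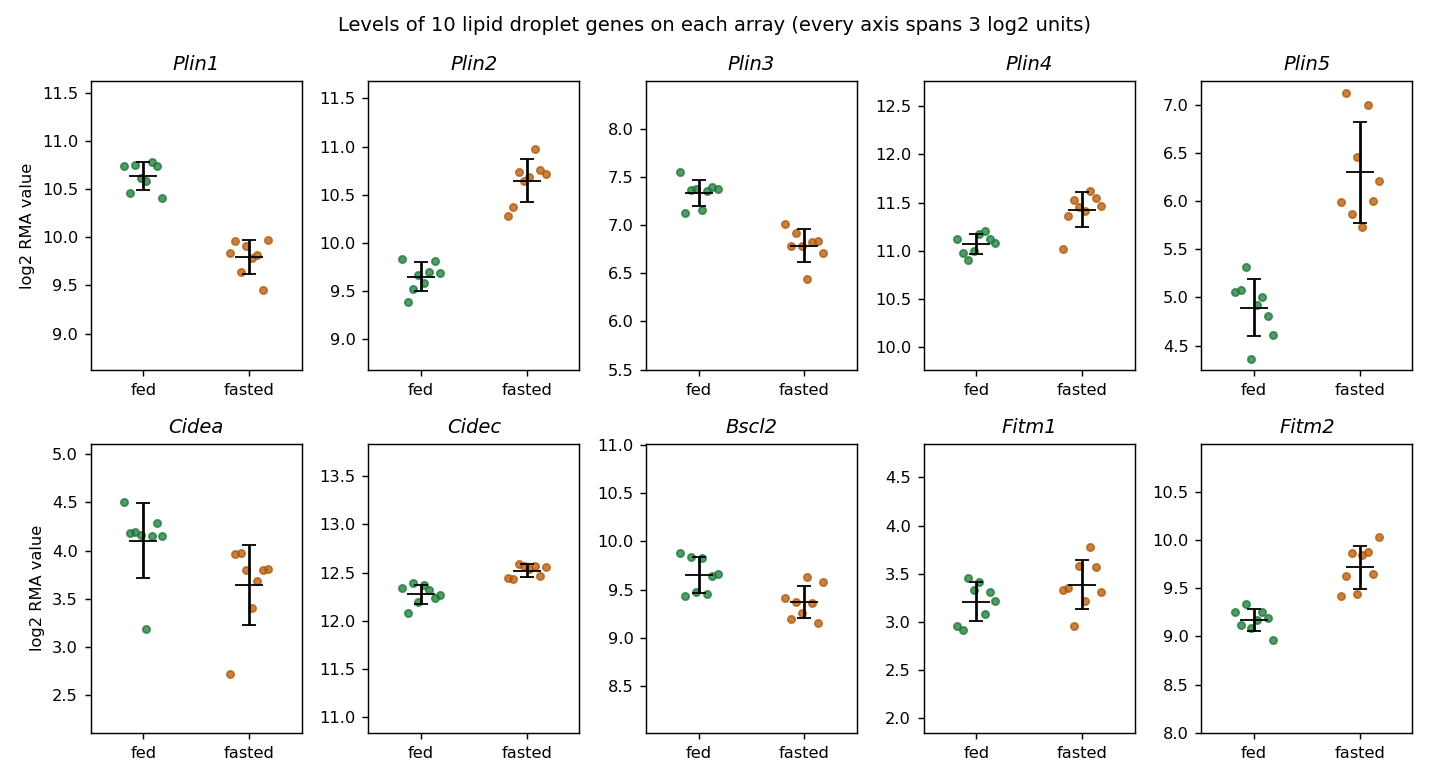
Log2 level of each of the 10 genes on every array, with the 8 fed arrays in green and the 8 fasted arrays in orange. Horizontal marks are group means and bars are SD, and each axis spans 3 log2 units so that changes can be compared by eye. Fed and fasted arrays are fully separate for Plin1, Plin2, Plin3, Plin5, Cidec and Fitm2.

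Among the whole set of arrays, correlations over all genes lay between 0.966 and 0.993, and no 2 arrays were identical. Fed replicates 2 and 3 and fasted replicate 7 stood apart on the principal components 2 and 3 (17.9% and 7.91% of the variance). Without these 3 arrays 7 of the 10 members were called, the same 5 higher and Plin1 and Plin3 lower.

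Plin2, the perilipin found on droplets of nearly all cells and stable only when bound to lipid, rose in every fasted array. In fed arrays it ran from 9.38 to 9.83 with a median of 9.68, and in fasted arrays from 10.28 to 10.98 with a median of 10.70. All 8 fasted arrays lay above the highest fed array. The mean rose from 9.65 ± 0.15 to 10.64 ± 0.22 (SD, n = 8 per group), a difference of 1.00 on the log2 scale (SE 0.094) or 1.99-fold (limma adjusted p = 3.91e-07). By size its change ranked 361 among all genes.

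Plin5, the perilipin of oxidative tissues that links droplets to mitochondria, had the largest change of the set. Fed arrays lay between 4.36 and 5.31 (median 4.96), and fasted arrays between 5.73 and 7.12 (median 6.10). The groups did not overlap, but the fasted arrays were spread widely, with replicates 2 and 6 at 7.12 and 7.00 and replicate 5 lowest at 5.73. The mean rose by 1.40 on the log2 scale (SE 0.19, 2.65-fold, limma adjusted p = 2.71e-05).

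Plin4, an adipocyte perilipin with a long run of repeats that coats small new droplets, rose by a smaller step. Fed arrays spanned 10.91 to 11.20 with a median of 11.10, and fasted arrays 11.02 to 11.62 with a median of 11.46. Of the 8 fasted arrays 7 lay above every fed array, and fasted replicate 1 lay inside the fed range. The log2 difference was 0.35 (SE 0.079, 1.28-fold, limma adjusted p = 0.00303), and without fasted replicate 1 it was 0.41.

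Plin1, the main coat protein of the adipocyte droplet, moved the other way. Its fed arrays lay between 10.41 and 10.79 (median 10.68) and its fasted arrays between 9.46 and 9.97 (median 9.82). No fasted array reached the lowest fed array. The mean fell from 10.64 ± 0.14 to 9.80 ± 0.18 (SD, n = 8 per group), a log2 difference of -0.84 (SE 0.083), or 1.79-fold lower (limma adjusted p = 6.95e-07).

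Plin3, the widely expressed perilipin that moves from the cytosol to growing droplets, also fell. It ranged from 7.13 to 7.55 in fed arrays (median 7.37) and from 6.44 to 7.01 in fasted arrays (median 6.80). The groups were separate, with fasted replicate 5 lowest of all. The log2 difference was -0.55 (SE 0.080), or 1.46-fold lower (limma adjusted p = 5.88e-05). Of the 5 perilipins, 3 therefore rose and 2 fell.

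**Figure D2:**
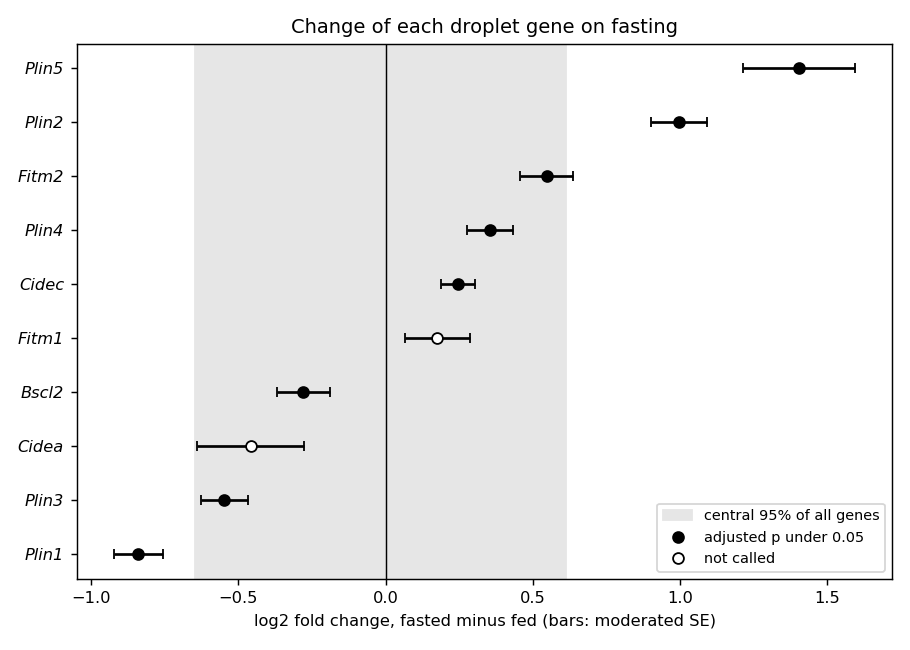
Log2 fold change of each gene, fasted minus fed, with bars for the moderated SE and filled points for an adjusted p under 0.05. The grey band holds the central 95% of all genes, from -0.65 to 0.61, and Plin5, Plin2 and Plin1 lie outside it.

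Cidec, the CIDE protein of white fat that joins droplets into 1 large droplet, was among the brightest signals and rose slightly. Fed arrays lay between 12.08 and 12.39 (median 12.29), and fasted arrays between 12.43 and 12.59 (median 12.55). The groups did not overlap, and the fasted arrays were close together, with an SD of 0.064 against 0.10 in fed arrays. The difference was 0.25 on the log2 scale (SE 0.058, 1.19-fold, limma adjusted p = 0.00470). The brightest probe set of each array stood at 13.1 to 13.2, and whether saturation bears on this change was not tested.

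Cidea, the CIDE protein best known from brown fat, had low signals in both groups and was not called. Fed arrays ran from 3.19 to 4.50 with a median of 4.17, and fasted arrays from 2.72 to 3.98 with a median of 3.80. All 8 fasted arrays lay below the fed median, but fed replicate 5, at 3.19, lay below 7 of them. The log2 difference was -0.46 (SE 0.18, limma adjusted p = 0.0915). It was called without fed replicate 5 (-0.59, limma adjusted p = 0.00995) and by an exact rank sum test (adjusted p = 0.0399). Without fasted replicate 1, the lowest of its group, it was not called (-0.33, limma adjusted p = 0.155). Nor was it called without the 3 arrays that stood apart (-0.45, limma adjusted p = 0.183). A linear value of 20 was reached on 1 of the 16 arrays. Of 13 measured markers of brown and beige adipocytes 1 rose (Slc36a2) and 2 fell (Cox7a1 and Prdm16), where 19.2% of all genes were called. Their mean level was 4.35 to 4.57 in fed and 4.29 to 4.52 in fasted arrays. Leaving out 1 array ended the call of Prdm16 for 11 of the 16 arrays (adjusted p up to 0.102) and that of Slc36a2 for 5 (up to 0.0578). Ucp1, the uncoupling protein of brown fat, stood at 2.85 ± 0.12 and 2.94 ± 0.34 (SD, n = 8 per group). Whether these markers bear on Cidea was not tested.

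Fitm2, the FIT protein found in most tissues and needed for droplets to bud from the endoplasmic reticulum, rose by 0.55 on the log2 scale (SE 0.089, 1.46-fold, limma adjusted p = 1.78e-04). Its fed arrays spanned 8.97 to 9.33 (median 9.18) and its fasted arrays 9.41 to 10.03 (median 9.74). Every fasted array was above every fed array. The fasted SD was 1.95 times the fed SD, the highest such ratio of the 10 genes.

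Fitm1, the FIT protein of skeletal and heart muscle, was dim in all 16 arrays. It ranged from 2.92 to 3.46 in fed arrays (median 3.26) and from 2.96 to 3.78 in fasted arrays (median 3.34), with wide overlap. The log2 difference of 0.18 (SE 0.11) was not called (limma adjusted p = 0.334), and a second probe set gave -0.029 (SE 0.19). No array reached a linear value of 20. Among 12 skeletal muscle markers the muscle creatine kinase Ckm had mean levels of 3.27 (fed) and 3.19 (fasted) and the myosin Myh4 of 2.37 and 2.43, while Acta1 rose and Myl1 fell.

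Bscl2, the seipin whose loss causes generalised lipodystrophy, fell by 0.28 on the log2 scale (SE 0.090, 1.21-fold, limma adjusted p = 0.0342). Fed arrays lay between 9.43 and 9.87 (median 9.65) and fasted arrays between 9.15 and 9.63 (median 9.37). All 8 fasted arrays were below the fed median, and 6 were below the lowest fed array. This call was the least secure of the set. Leaving out fed replicate 1, 3, 5, 7 or 8, or fasted replicate 2, 3, 4, 6 or 7, ended it (adjusted p between 0.0523 and 0.0722). It also ended without the 3 arrays that stood apart (0.0822) and after subtraction of array medians (0.148).

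The members were then compared with each other within each array, for 5 pairs chosen with earlier results of these data known. Levels of different probe sets cannot be ranked, but the log2 difference between 2 genes on 1 array shows whether they changed by unequal amounts. Plin5 minus Plin1 went from -5.75 ± 0.28 in fed to -3.50 ± 0.46 in fasted arrays (SD, n = 8 per group), a shift of 2.25 on the log2 scale. This shift is a description with no test, because 1 gene rose and the other fell with no overlap between the groups, so that their difference had to separate. Plin5 rose more than Plin4, its chromosomal neighbour, by 1.05 (SE 0.22, two-sided exact permutation p adjusted over the 5 pairs = 0.00117). Before adjustment the exact permutation p was 4.66e-04, and the adjustment counts Plin5 against Plin1, which carries no test. Plin5 reached a linear value of 20 on 16 arrays, but its lowest fed array, at 4.36, only just. Plin4 lay between 10.91 and 11.62, and whether these levels bear on the difference was not tested. Against Plin2 the difference was 0.41 (SE 0.24), which did not pass (exact permutation adjusted p = 0.106). Without the 3 arrays that stood apart it was 0.63 (exact permutation p = 0.0221, not adjusted over the pairs). With 1 array left out it lay between 0.25 and 0.49 (exact permutation p between 0.0559 and 0.212, not adjusted).

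The CIDE and FIT pairs each set a dim gene against a bright one, so their differences are given as values with no test and do not show that the members of a pair changed by unequal amounts. Cidea minus Cidec differed between fasted and fed arrays by -0.71 (SE 0.21), where Cidea reached a linear value of 20 on 1 of 16 arrays and Cidec was near the bright end. Fitm1 minus Fitm2 differed by -0.37 (SE 0.15), where Fitm1 reached that value on 0 of 16 arrays.

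**Figure D3:**
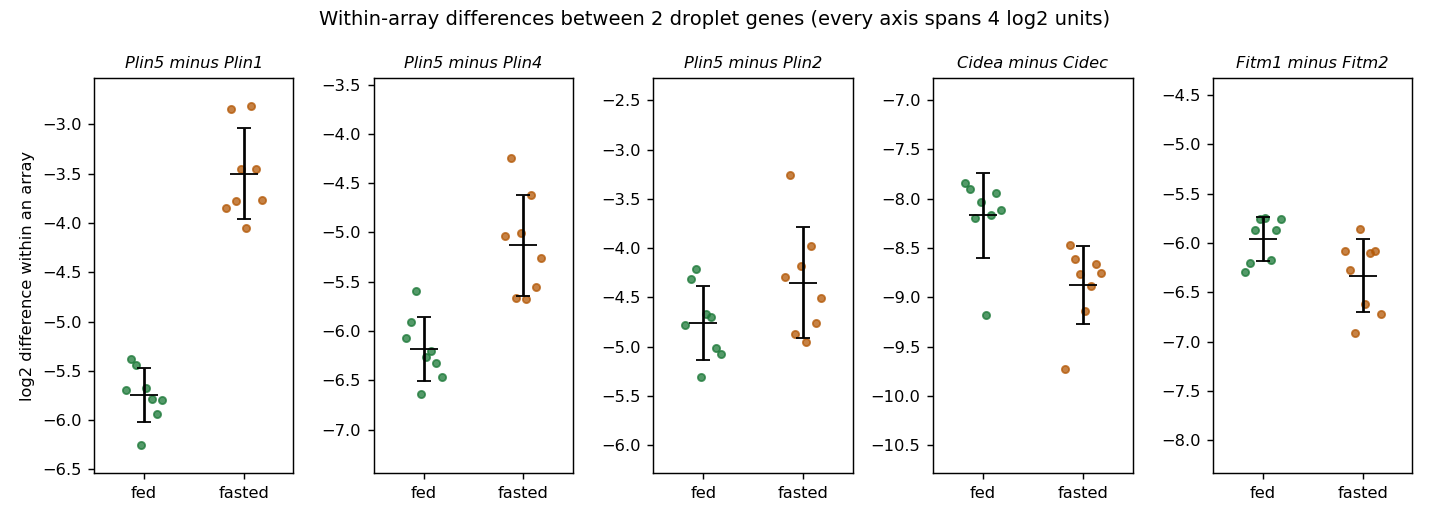
Log2 difference between 2 genes on the same array for 5 pairs, with 8 fed arrays in green and 8 fasted arrays in orange, group means as horizontal marks and SD as bars. Each axis spans 4 log2 units. For Plin5 minus Plin1 the fed arrays end at -5.38 and the fasted arrays begin at -4.05.

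Beyond the group difference, 1 pair of members passed a test of varying together. Deviations of the arrays from their group means were correlated for all 45 pairs of members. The median Pearson's r was 0.12, and r was above 0 for 32 pairs. This median was not compared with that of other genes. Plin2 and Plin4 were the 1 pair that passed adjustment over the 45 (r = 0.800, permutation p = 4.90e-04, adjusted p = 0.0220, n = 16 arrays). Spearman's rho was 0.762 (permutation p = 0.00134), which did not pass adjustment over the pairs (0.0603). Within fed arrays r was 0.560 and within fasted arrays 0.894. Without the 2 arrays farthest from the median of Plin2 it was 0.703, and without the 3 arrays that stood apart 0.783. Fasted replicate 1 had the lowest Plin2 and the lowest Plin4 of the fasted group, and fasted replicate 6 the highest of both. Plin5, whose fasted arrays were the most spread, reached adjusted significance with no other member.

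**Figure D4:**
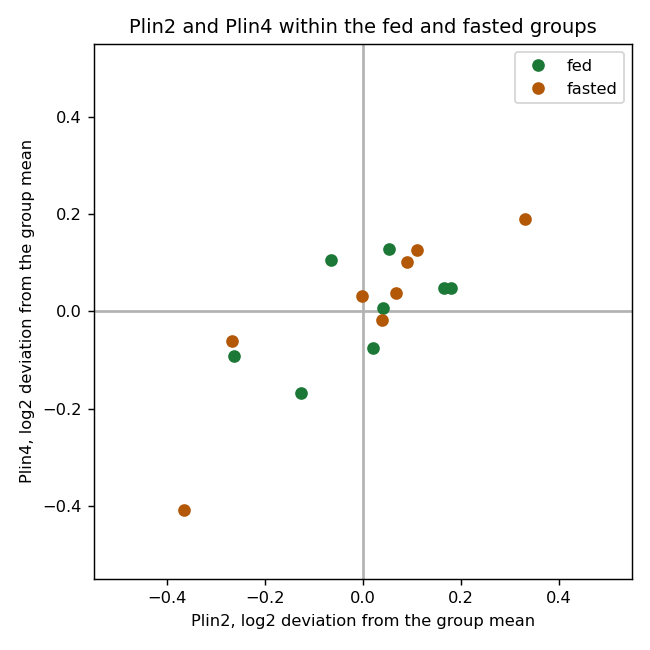
Deviation of Plin2 (horizontal axis) and Plin4 (vertical axis) from their group means on the log2 scale, 1 point per array, fed in green and fasted in orange. Arrays with more Plin2 than their group mean tended to have more Plin4, with r = 0.800 over 16 arrays.

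The spread between arrays also differed by gene. The fasted SD was larger than the fed SD for 8 of the 10 genes, with ratios of 1.78 for Plin4, 1.76 for Plin5 and 1.48 for Plin2, and it was smaller for Cidec (0.632) and Bscl2 (0.931). These ratios were not tested and were not compared with those of all genes, so they are not shown to be particular to the set.

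For each called member the 3 genes most like it in their deviations from the group means over 16 arrays are given as a description, with Pearson's r between 0.815 and 0.963. They were picked for the highest r among all genes, so high values follow in part from the choice, and none was tested. The closest was Pstk, a kinase of selenocysteine tRNA, which followed Plin1 at r = 0.963 and, without the 3 arrays that stood apart, at 0.958, and fell by 0.41 on fasting. Gbp7 and Slc25a11 came next for Plin1, at 0.824 and 0.823, and without the 3 arrays their r was 0.620 and 0.694. Nubp2, a factor for iron-sulfur proteins, led for both Plin4 (0.923) and Plin2 (0.898) although its own change was -0.015. The others for Plin2 were Polr3d and Utp18, and for Plin4 Cdk17 and Trim32. Plin3 was followed by Pi16, Wdr25 and Sh3bp1, Cidec by Rap2b, Ebf2 and Gnpat (the last 2 at 0.654 and 0.671 without the 3 arrays), Bscl2 by Ddhd2, Txn2 and Tom1l1, and Fitm2 by Gde1, Mccc2 and Ribc1. Gde1 rose with Fitm2, by 0.91 on the log2 scale. The genes most like Plin5 were the receptor genes Vmn2r116 and Olfr266 and the gene Gm5886, with mean log2 levels of 2.20, 2.82 and 1.92, at the dim end of the arrays.

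Of 14 measured neighbours of called members outside the set, 4 were called, where 19.2% of all genes were called. Of these 4, 1 moved in the direction of its member. Lrg1, a secreted glycoprotein on the other side of Plin5 from Plin4, fell by 0.46 (SE 0.14, limma adjusted p = 0.0216). Dennd4c beside Plin2 rose by 0.35 (limma adjusted p = 0.00269) as Plin2 did. Rpusd3 beside Cidec fell by 0.32 (limma adjusted p = 0.0137), and Lrrn4cl beside Bscl2 rose by 0.57 (limma adjusted p = 2.79e-04). The other neighbours, Kif7 and Pex11a of Plin1, Haus6 of Plin2, Ticam1 and Arrdc5 of Plin3, Hdgfl2 of Plin4, Jagn1 of Cidec, Gng3 of Bscl2, and Gdap1l1 and R3hdml of Fitm2, were not called.

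Other proteins of the droplet surface were taken from a list of 37 genes, of which 33 were measured. Of these 6 rose, 14 fell and 13 were not called, where 19.2% of all genes were called. Their median log2 fold change was -0.25 against -0.0042 for all genes. Under the filter on dim genes 23 of 33 were called, against 4553 of 10832 genes. Pnpla3, a droplet-bound relative of the triglyceride lipase Pnpla2, fell by 3.78 (limma adjusted p = 4.23e-09). Lss, Nsdhl and Sqle, sterol synthesis enzymes that can sit on droplets, fell by 1.22, 1.17 and 1.11. Hilpda, a small droplet protein that inhibits the lipase Pnpla2, rose by 1.17 (SE 0.23, limma adjusted p = 8.48e-04). G0s2, another inhibitor of Pnpla2, fell by 1.09 (SE 0.21, limma adjusted p = 7.66e-04), and by 0.76 with its other probe set. Pnpla2 itself, the lipase that starts triglyceride breakdown, rose by 0.61 (SE 0.070, limma adjusted p = 4.25e-06). Of the lipases Lipe and Mgll in the same list, Lipe was not called (-0.0093, limma adjusted p = 0.95). Mgll fell by 0.35 (limma adjusted p = 0.00269). Aifm2 rose by 0.80 (limma adjusted p = 5.64e-07). Abhd5, the partner that Plin1 holds, rose by 0.25 (limma adjusted p = 0.0318) while Plin1 fell, but leaving out fed replicate 1, 2, 4 or 6, or fasted replicate 5, 7 or 8, ended that call (adjusted p between 0.0513 and 0.0665). Cav1 and Ehd2, caveolar proteins that also reach droplets, fell by 0.78 and 0.79. The remaining calls of this list were rises of Hsd17b11 and Aup1, by 0.49 and 0.23, and several falls. Dhrs1, Vps13c and Ldah fell by 0.64, 0.36 and 0.35, and Rdh10, Dhrs3 and Lpcat2 by 0.31, 0.28 and 0.27. Leaving out fed replicate 5 or 7 or fasted replicate 5 ended the call of Dhrs3 (adjusted p between 0.0515 and 0.0537). These remaining genes and G0s2, Pnpla2, Lipe, Mgll, Aifm2, Abhd5, Cav1 and Ehd2 were named after their values were seen.

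Of 33 measured genes of droplet formation in the endoplasmic reticulum, 5 rose, 7 fell and 21 were not called (median -0.074). Over all genes 19.2% were called. Under the filter on dim genes 13 of 31 were called, against 4553 of 10832 genes. Dgat2, which makes the triglyceride that fills new droplets, fell by 2.35 (SE 0.16, limma adjusted p = 7.57e-09). Agpat2, the acyltransferase whose loss, like that of seipin, causes lipodystrophy, fell by 1.22 (limma adjusted p = 7.28e-07). Vmp1, a scramblase that helps droplets and lipoproteins leave the membrane, rose by 1.81 (SE 0.15, limma adjusted p = 9.24e-08). Rab3gap1, a subunit of the exchange factor for the droplet GTPase Rab18, rose by 0.95, and Reep5, which shapes tubules of the endoplasmic reticulum, fell by 0.56. The other called genes of this list are named so that both directions are complete. Cds2, Mctp2 and Lpin1 rose by 0.52, 0.44 and 0.39. Rab1b, Gpat3, Osbpl8 and Tmem41b fell by 0.50, 0.42, 0.33 and 0.32, and the other probe set of Gpat3 by 0.93. The call of Mctp2 ended when fed replicate 4 or 6 or fasted replicate 5 or 8 was left out (adjusted p between 0.0510 and 0.0563).

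Among 23 transcription factors and cofactors known to control fat storage genes, 2 rose, 7 fell and 14 were not called (median 0.0072). Over all genes 19.2% were called. Under the filter on dim genes 9 of 21 were called, against 4553 of 10832 genes. Pparg, the receptor that drives perilipin and CIDE genes in fat cells, did not pass the test (limma adjusted p = 0.981), with fed arrays at 10.39 ± 0.29 and fasted arrays at 10.40 ± 0.17 (SD, n = 8 each). Cebpd rose by 1.62 and the oxysterol receptor Nr1h3 by 0.28. Srebf1 fell by 1.98, Mlxipl by 0.86, Nrip1 by 0.77, Nr3c1 by 0.58, Esrra by 0.51 and Cebpa by 0.42. Prdm16 fell by 0.26 (limma adjusted p = 0.0486), a call that ended when fed replicate 1, 4, 6, 7 or 8, or fasted replicate 1, 2, 4, 5, 7 or 8, was left out (adjusted p between 0.0523 and 0.102), with its other probe set at 0.021.

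**Figure D5:**
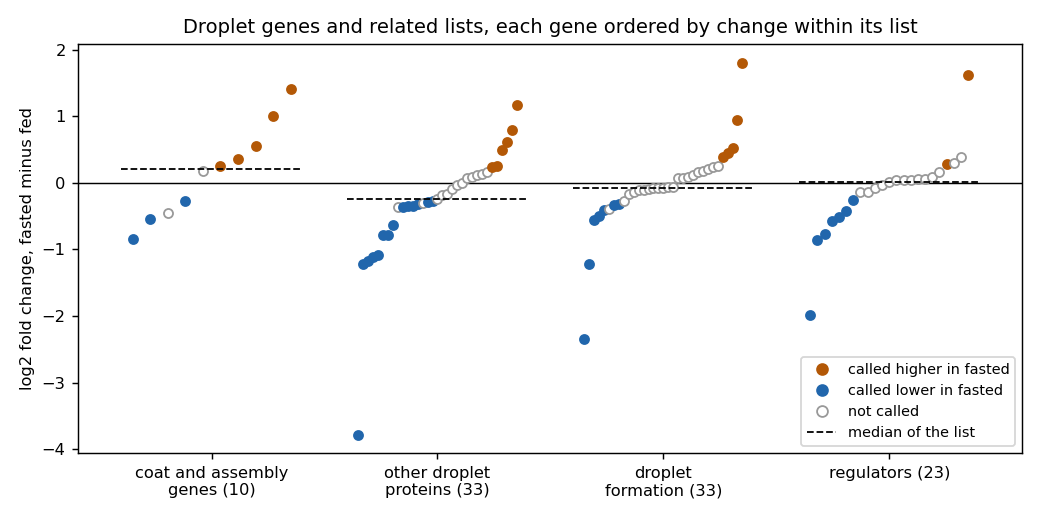
Log2 fold change, fasted minus fed, of every measured gene in the set of 10 and in 3 related lists, ordered by size within each list. Orange points were called higher and blue points lower in fasted arrays, open points were not called, and dashed lines are list medians of 0.21, -0.25, -0.074 and 0.0072.

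Markers of the cells in the fat pad were read beside these results and beside the 19.2% called over all genes. Every measured adipocyte, macrophage, endothelial and progenitor marker passed the filter on dim genes. Under that filter 4553 of 10832 genes were called, which is the closer share for these bright markers. Of 12 measured adipocyte markers 1 rose and 4 fell, and their mean level was 10.91 to 11.18 in fed and 10.58 to 10.86 in fasted arrays. Lep and Slc2a4 fell by 1.93 and 1.79, Cebpa and Retn by 0.42 and 0.25, and Aqp7 rose by 0.24, whereas Fabp4 and Adipoq were not called, at 0.063 and -0.12. Of 12 macrophage markers, cells in which Plin2 is also abundant, 3 rose and 2 fell, with mean levels of 8.41 to 8.65 in fed and 8.36 to 8.90 in fasted arrays. Cd68, Cd163 and C1qb rose by 0.88, 0.73 and 0.30, Itgax and Mrc1 fell by 0.72 and 0.23, and Adgre1 and Lyz2 were not called. Of 10 endothelial markers 3 rose (Eng, Pecam1 and Tek) and none fell. Among 9 progenitor markers 3 fell (Col3a1, Lum and Cd34) and none rose. These markers were named after their values were seen. The call of Aqp7 ended without fed replicate 5 (adjusted p = 0.0506) and that of C1qb without fasted replicate 6 (adjusted p = 0.0506). Leaving out 1 array ended the call of Mrc1 for 10 of the 16 arrays (adjusted p up to 0.0743) and that of Tek for 10 (up to 0.0815). The part of these cell types in the changes of Plin1 and Plin2 was not tested. Further marker lists varied between arrays. The mean level of 12 liver markers was 6.03 to 8.96 in fed and 6.37 to 8.34 in fasted arrays. For 10 markers of epididymis and ciliated epithelium it was 2.71 to 4.72 and 2.77 to 4.28. For 8 mesothelium markers it was 7.34 to 7.88 and 6.59 to 7.94. Whether other tissue in the samples bears on the members was not tested.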

How the data were processed

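The authors' arrays were processed with RMA, per the submitters' processing notes. The range of the deposited values, 0.994 to 13.2, marks a log2 scale. Genome build, RMA version and filters: not given in the sources used here. Of 41345 probe sets, 23521 carried 1 gene symbol, and the probe set with the highest mean was kept for each of 22180 genes. A limma 3.58.1 model (R 4.3.3; lmFit on group, eBayes defaults, no filter) gave the fasted minus fed differences, with Benjamini-Hochberg adjustment over all genes. The script was tested on simulated data. All 5 pairs of members were compared by exact permutation in scipy 1.17.1 and adjusted together, but 3 are given with no p, since their values do not carry a test. Correlations were tested with 100000 permutations within groups. Figures were drawn with matplotlib 3.10.9. The members, the pairs and the lists were chosen with earlier results of these data known. The genes named were all members, the 5 largest called changes of each list and all called regulators, the 3 genes most like each called member, and its neighbours in RefSeq. Beyond this rule, further droplet proteins, the remaining called genes of droplet formation and the cell markers were named after their values were seen. No batch was given, so none was modelled, and the number of arrays limits the precision. Alternatives were filters, scalings, eBayes settings, array weights, the replicate block, arrays left out, other probe sets, a rank sum test and a threshold of 0.01.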

Additional observations from a re-analysis of the deposited data

Results flagged for a closer look

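In 20 groups of 8 arrays (10 genes, fed and fasted), 3 values, on fasted replicate 1 and fed replicate 5, lay far from the others of their group by Dixon's criterion, which chance alone meets in about 1 of 20 such groups. Fasted replicate 1 had Plin4 at 11.02, where the other fasted arrays lay between 11.37 and 11.62. The same array had Cidea at 2.72, against 3.40 to 3.98 in the others. Fed replicate 5 had Cidea at 3.19, against 4.15 to 4.50 in the other fed arrays.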

How the results depend on the processing

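Plin1, Plin2, Plin3, Plin4, Plin5, Cidec and Fitm2 kept their direction and call in all 28 alternatives run. Each has a single probe set, so the other probe set settings could not change its difference. The filters, eBayes settings, replicate block and rank sum test could change only the p. At a threshold of 0.01, 2766 of all genes were called in place of 4251. Bscl2 lost its call after median subtraction (-0.24) and without 3 arrays that stood apart (-0.25), and stood between -0.32 and -0.25 with 1 array left out. Cidea passed the rank sum test (-0.46, exact but for 164 genes with ties) and lay between -0.59 and -0.33 with 1 array left out. Fitm1 turned to -0.029 with its dimmer probe set, and neither Cidea nor Fitm1 passed a filter on dim genes. Plin5 against Plin2 was 0.63 without the 3 arrays, and lay between 0.25 and 0.49 with 1 array left out. Fitm1 against Fitm2 lay between -0.44 and -0.29 with 1 array left out. Same-numbered fed and fasted arrays deviated together, with a correlation over 0.1, in 2 of 8 pairs. The labels do not say whether the numbers pair the samples, and this check cannot exclude it. With the replicate block 3829 genes and 8 members were called, and Fitm1 against Fitm2 stayed at -0.37, a pair read with no test because Fitm1 was dim. The causes were not tested.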
